A study of Mus musculus with 35 samples.

Results

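Protein folding in the endoplasmic reticulum and the heat shock chaperones of the cytosol and mitochondria were followed through 37 mouse genes, listed by symbol. Of these, 36 were measured by a probe set assigned to 1 gene, out of 19908 genes tested in all. They comprise 14 folding factors of the endoplasmic reticulum (ER), 7 stress sensors and transcription factors, 7 genes of ER-associated degradation or the translocon, 6 cytosolic heat shock genes and 2 mitochondrial chaperonins. Hsp90ab1, a cytosolic HSP90, was not analysed here because no probe set was assigned to it alone.

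The colon of 35 C57BL/6N mice was profiled, 5 mice in each of 7 groups, with 1 Affymetrix Mouse Gene 1.0 ST array per mouse. Conventional mice were wild-type or carried a transgene of Reg3a, a secreted lectin of the gut with antibacterial activity, and were either untreated or given 3% dextran sodium sulfate (DSS), a polymer that injures the colon epithelium, for 5 days. Axenic (germ-free) mice received flora from wild-type or from transgenic donors 3 weeks before DSS, or served as axenic controls, and all 3 axenic groups had DSS. Colon was collected on day 12. The labels do not say whether the axenic controls also received flora, of which genotype the axenic recipients were, which promoter drove the transgene or from which species its Reg3a came. Sample tags place the conventional mice after a microbial transfer, which the titles and design text do not, and the titles were followed. The axenic groups and conventional groups were not compared by test.

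An overloaded ER activates the unfolded protein response. Its sensor IRE1 (Ern1, with the epithelial form Ern2) splices Xbp1 mRNA, ATF6 is cleaved into a transcription factor, and PERK leads to translation of ATF4, which acts on Ddit3 and Trib3. XBP1 and ATF6 raise the transcription of ER chaperones and of degradation factors through ER stress response elements. The heat shock response is a separate arm, in which HSF1 binds heat shock elements of cytosolic and mitochondrial chaperone genes. Splicing of Xbp1 and cleavage of ATF6 are not read by a gene-level probe set. Goblet cells and plasma cells, both heavy secretors, are known in the gut for a large ER.

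To show the elements on which these responses are known to act, promoter windows of 300 bases (250 before to 50 after the annotated start) were searched on both strands. RefSeq windows on GRCm38.p6 were matched by symbol to 29 of the 37 listed genes, and the others were Hsp90aa1, Hsp90ab1, Hspa8, Hyou1, Manf, Atf6, Ern2 and Derl1. The ER stress response element, spelled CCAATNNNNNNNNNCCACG, was found in 8 of these genes (Hspa5, Hsp90b1, Pdia6, Calr, Canx, Dnajc3, Creld2 and Syvn1), against 0.137% of 27025 genes with a window. Among the folding factors it was in 7 of 12. The second form, ATTGG and CCACG with 1 base between them, was found in Dnajb11 and Herpud1, against 0.0444% of genes. The heat shock element, searched as GAANNTTCNNGAA, was found in Hsph1, Hspd1 and Hspe1, against 0.662% of genes. A C/EBP-ATF response element, TGATGNAA, was found in Trib3 and Herpud1, against 4.51% of genes. Other genes of these windows held none of the 4 spellings, which says only that those letters are not in that window. The stretches run 5′ to 3′ on the strand of the gene, with the fixed letters of the element in capitals. Stretches of folding factors called after DSS in wild-type mice are shown, and Canx, Syvn1 and Herpud1 because they hold an element and were not called. Pdia3, Pdia4 and Sdf2l1 were called in those mice too, and their windows held none of the 4 spellings. Whether the elements act in these samples was not tested.
Hspa5 (chr2:34772010-34772058, plus strand): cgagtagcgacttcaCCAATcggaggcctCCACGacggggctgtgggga
Hsp90b1 (chr10:86705518-86705671, minus strand): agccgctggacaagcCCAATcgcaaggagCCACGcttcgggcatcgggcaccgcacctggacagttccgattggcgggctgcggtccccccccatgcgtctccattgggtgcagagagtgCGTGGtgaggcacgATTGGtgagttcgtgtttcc
Pdia6 (chr12:17266476-17266524, plus strand): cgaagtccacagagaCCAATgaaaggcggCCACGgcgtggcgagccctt
Calr (chr8:84847060-84847108, minus strand): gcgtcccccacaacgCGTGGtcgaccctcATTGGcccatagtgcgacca
Dnajc3 (chr14:118937812-118937860, plus strand): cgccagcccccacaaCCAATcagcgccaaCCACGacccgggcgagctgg
Creld2 (chr15:88819505-88819553, plus strand): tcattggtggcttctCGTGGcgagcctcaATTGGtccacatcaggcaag
Canx (chr11:50325785-50325833, minus strand): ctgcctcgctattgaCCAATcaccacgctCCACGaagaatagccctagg
Syvn1 (chr19:6046517-6046565, plus strand): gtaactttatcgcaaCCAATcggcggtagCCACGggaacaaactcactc
Herpud1 (chr8:94386362-94386402, plus strand): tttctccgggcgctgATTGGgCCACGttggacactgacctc
Hspd1 (chr1:55088044-55088091, minus strand): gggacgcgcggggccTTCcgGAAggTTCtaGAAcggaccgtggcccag
Hspd1 and Hspe1 lie head to head, so the stretch of Hspd1 read on the other strand is also that of Hspe1. The element of Dnajb11, ATTGGCCCACG on chromosome 16, and that of Hsph1, TTCTGGAAAGTTC on chromosome 5, lie just after the annotated start.

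Depth is not a property of arrays, and precision rests on 5 mice per group. Of the colon epithelium markers, Epcam, Lgals4 and the mucin Muc2 were high on all 35 arrays. Epcam lay between 11.36 and 12.24 log2 units, Lgals4 between 12.29 and 13.57 and Muc2 between 12.45 and 14.11. Other markers varied more: Cdh17 ran from 10.59 to 12.36, Krt20 from 9.64 to 12.27 and Vil1 from 9.03 to 11.15. Cdx2 ran from 7.61 to 10.35 and the posterior gene Hoxb13 from 6.39 to 11.41. Smooth muscle markers were present too, with a mean level of 9.01 to 10.59, so the samples held more than epithelium. Levels below are log2 of RMA signal, and a difference of 1 is a doubling. In whole colon, a lower level in each cell and fewer of the cells that express a gene cannot be told apart. Two-sided moderated tests of limma were adjusted by Benjamini-Hochberg over all 19908 genes, and a gene was called, or is said to have risen or fallen, at adjusted p under 0.05.

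After DSS, wild-type colon had higher levels of ER folding factors. Of the 14 folding factors 12 rose, from 0.61 log2 units for Manf to 1.43 for Pdia6. None of the 7 sensors and transcription factors was called, and 1 of the 7 degradation and translocon genes rose. Of the 6 cytosolic heat shock genes only Hsph1 rose, and neither mitochondrial chaperonin was called. In all, 14 of 36 genes were called, all higher, where 3.00% of all genes tested were called higher. Their median difference was 0.35, against -0.02 over all genes. In 13 of the 36, all 5 DSS mice lay above all 5 untreated mice, as did 3.20% of all genes.

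Hspa5 encodes BiP, the ER HSP70 that holds the stress sensors inactive. Its level in untreated wild-type mice was 10.35, 10.38, 10.47, 10.70 and 10.73, and in wild-type DSS mice 11.49, 11.64, 11.70, 11.85 and 12.05. All 5 DSS mice were above all 5 untreated mice. The fitted rise was 1.22 ± 0.13 (SE), or 2.33-fold, with a limma adjusted p of 0.000603. In transgenic mice the values were 10.30, 10.66, 10.73, 10.91 and 11.43 untreated and 10.69, 10.95, 11.12, 11.13 and 11.20 after DSS. Those groups overlapped, and the difference was 0.21 ± 0.18 (limma adjusted p = 0.457).

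Hsp90b1 encodes GRP94, the ER HSP90. It lay at 10.15, 10.32, 10.40, 10.47 and 10.80 in untreated wild-type mice and at 11.48, 11.50, 11.81, 11.90 and 12.11 after DSS, without overlap. It rose by 1.33 ± 0.16 (limma adjusted p = 0.00118). In transgenic mice its difference was 0.67 ± 0.17, just outside the threshold with a limma adjusted p of 0.0514.

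The protein disulfide isomerases form and rearrange disulfide bonds of secreted proteins. Pdia6 was at 7.80, 7.93, 7.96, 8.03 and 8.29 in untreated wild-type mice and at 8.90, 9.36, 9.48, 9.48 and 9.93 after DSS. All DSS mice were above all untreated mice, and the rise of 1.43 ± 0.17 (2.69-fold) had a limma adjusted p of 0.00145. In transgenic mice Pdia6 lay at 7.66, 7.99, 8.13, 8.25 and 8.37 untreated and at 8.62, 8.75, 8.79, 8.90 and 9.25 with DSS. These groups did not overlap either, and Pdia6 rose by 0.78 ± 0.15 (limma adjusted p = 0.0189). Pdia4 (0.93) and Pdia3 (0.70) rose in wild-type mice, Pdia3 with an adjusted p of 0.0465, close to the threshold. Neither was called in transgenic mice, where their differences were 0.68 and 0.37.

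Calr encodes calreticulin and Canx calnexin, the soluble and the membrane-bound lectin chaperones of glycoproteins. Calr was at 10.83, 10.90, 10.90, 11.03 and 11.22 in untreated wild-type mice and at 11.71, 11.76, 11.84, 11.99 and 12.11 after DSS, and rose by 0.91 ± 0.11. In transgenic mice it rose by 0.50 ± 0.12 (limma adjusted p = 0.0454). Canx differed by 0.31 ± 0.12 in wild-type and 0.08 ± 0.15 in transgenic mice and was called in neither. Its promoter window holds the same element as that of Calr.

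Most co-chaperones of BiP rose in wild-type mice. Dnajc3 (p58IPK) and Dnajb11 (ERdj3), J-domain partners of BiP, rose by 1.06 and 0.97, and Hyou1, its nucleotide exchange factor, by 1.1004. Sdf2l1, a partner of ERdj3, lay at 8.27, 8.45, 8.80, 8.82 and 8.87 in untreated wild-type mice and at 9.34, 9.44, 9.68, 9.71 and 10.48 after DSS, a rise of 1.09 ± 0.21. Dnajb9 (ERdj4) is an exception: its values spread from 8.12 to 9.72 in untreated and from 7.68 to 9.83 in DSS wild-type mice. Its difference was -0.20 ± 0.42, with a 95% interval from -1.12 to 0.71, the widest spread among the folding factors.

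Creld2 and Manf, small secreted ER proteins induced by stress, rose by 1.35 ± 0.23 and 0.61 ± 0.12 in wild-type mice. Creld2 lay at 8.23, 8.26, 8.30, 8.44 and 9.01 in untreated wild-type mice and at 9.39, 9.39, 9.80, 9.87 and 10.53 after DSS. The untreated mouse at 9.01, mouse 11, was also the highest of its group in 22 of the 36 genes.

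**Figure D1:**
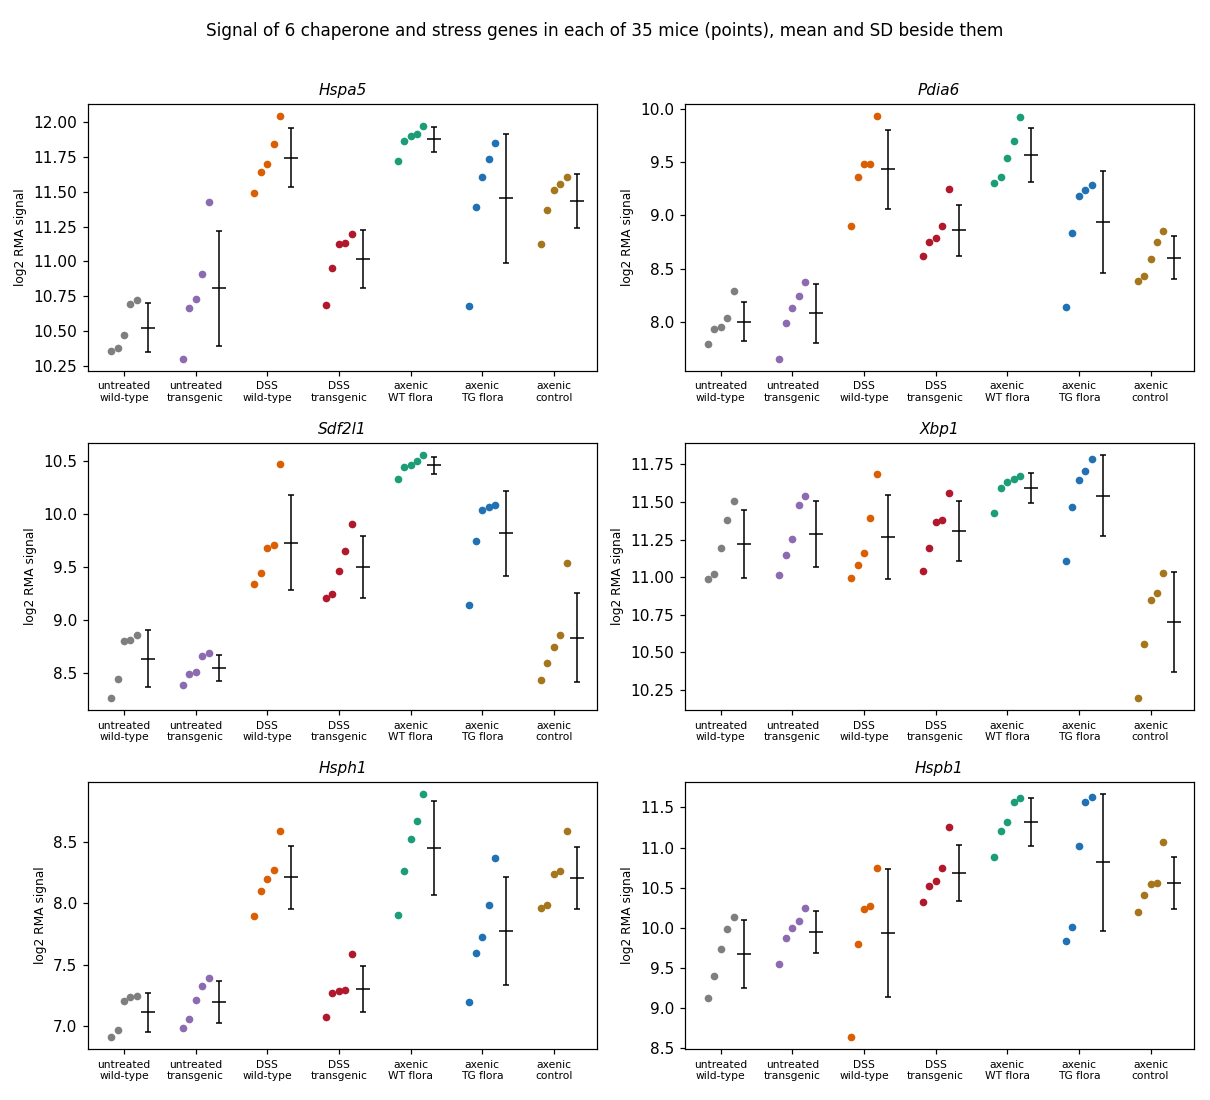
Log2 RMA signal (vertical axis, a separate range per gene) of 6 genes in each of 35 mice, by group; points are mice and the bar beside them is the mean with its SD over 5 mice. Among conventional mice, Hspa5 and Hsph1 stand high in wild-type DSS mice (11.49 to 12.05 and 7.89 to 8.59), while transgenic DSS mice reach 11.20 and 7.59 at most. Recipients of wild-type flora are in a similar range (11.73 to 11.97 and 7.90 to 8.88), and axenic controls reach 8.58 for Hsph1.

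The sensors and transcription factors gave no call after DSS in either genotype. Xbp1 was at 10.99, 11.02, 11.20, 11.38 and 11.51 in untreated wild-type mice and at 10.997, 11.08, 11.16, 11.40 and 11.69 after DSS, overlapping over nearly their whole range. Its difference was 0.05, with a 95% interval from -0.29 to 0.39. Ddit3 encodes CHOP, a transcription factor of prolonged stress, and differed by -0.20 (95% interval -0.43 to 0.03). Atf4 (0.27), Atf6 (0.12), Trib3 (-0.05), Ern1 (-0.17) and Ern2 (-0.25) were not called in wild-type mice. In transgenic mice the 7 genes ranged from -0.20 for Trib3 to 0.35 for Atf6. Levels of Ddit3 and Trib3 were near the median signal of the arrays (6.65 to 6.95), where a change may not show.

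Genes of ER-associated degradation, which returns misfolded proteins to the cytosol, were not called with 1 exception. Sec61b, a subunit of the translocon channel rather than a degradation factor, was at 8.64, 8.71, 8.74, 8.87 and 9.12 in untreated and at 9.14, 9.32, 9.34, 9.60 and 9.70 in DSS wild-type mice. It rose by 0.60 ± 0.13 (limma adjusted p = 0.0270), and its difference in transgenic mice was 0.02. The ubiquitin ligase complex genes Syvn1 (0.17) and Sel1l (-0.0023), the mannosidase-like Edem1 (0.23) and the derlins Derl1 (0.04) and Derl2 (0.45) were not called in wild-type mice. Herpud1, a membrane component of the degradation complex, had the lowest difference of the 36 genes at -0.47 ± 0.21 and was not called.

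Heat shock genes outside the ER gave fewer calls. Hsph1 encodes HSP105, a cytosolic HSP110 that exchanges nucleotide on HSP70. It was at 6.91, 6.97, 7.20, 7.23 and 7.25 in untreated and at 7.89, 8.10, 8.19, 8.27 and 8.59 in DSS wild-type mice, a rise of 1.096 ± 0.13 (2.14-fold, limma adjusted p = 0.00167). Hsp90aa1, the inducible HSP90, differed by 0.59 ± 0.22 with overlapping groups, and Hspa4l, a relative of HSP105, by 0.33. The constitutive HSP70 Hspa8 differed by 0.07 with a narrow spread. Dnajb1, the J-domain partner of HSP70, differed by 0.37, the small heat shock protein Hspb1 by 0.26, and the mitochondrial chaperonins Hspd1 (HSP60) and Hspe1 (HSP10) by 0.56 and 0.25. None of these 7 was called in wild-type mice.

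**Figure D2:**
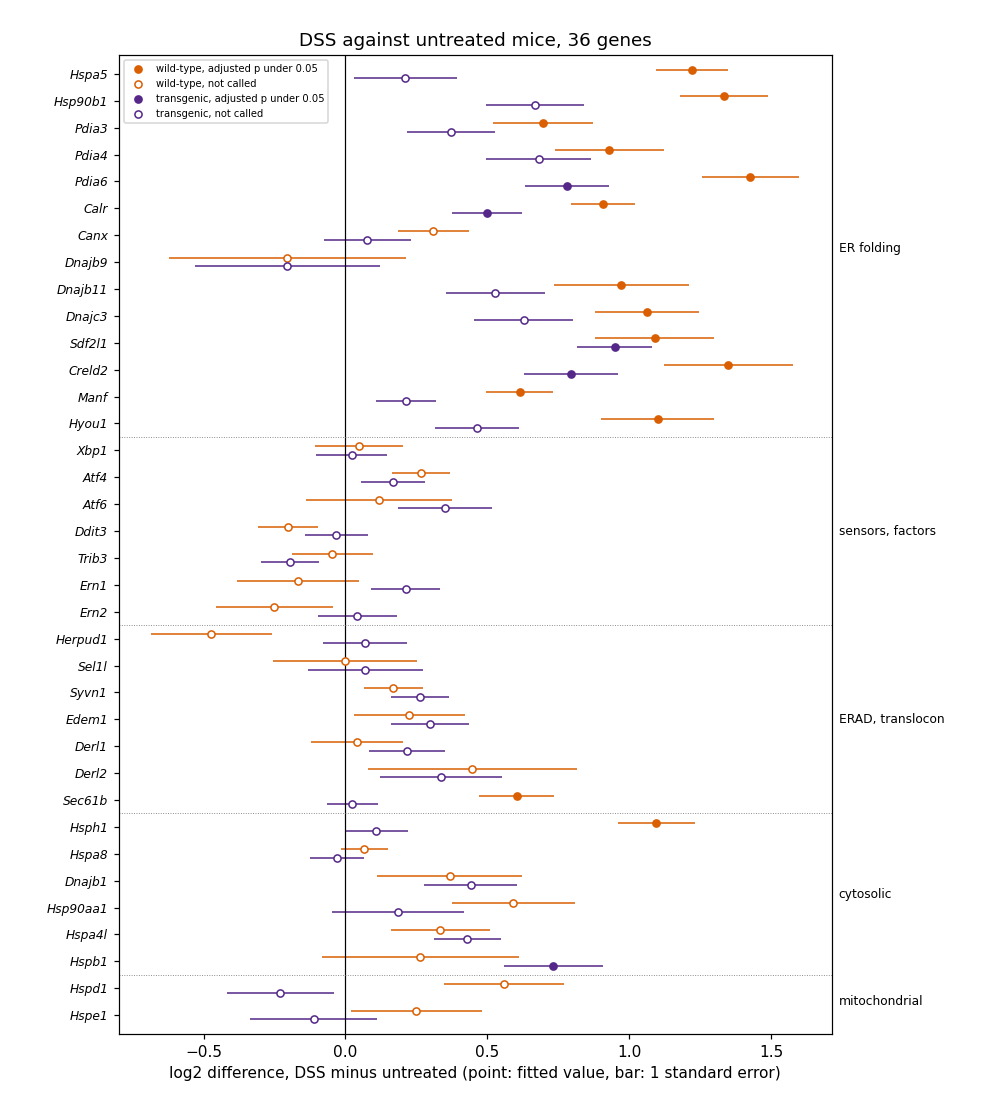
Fitted log2 difference between DSS and untreated mice (horizontal axis) for 36 genes in order of role, in wild-type and transgenic mice; bars are 1 SE and filled points have adjusted p under 0.05. In wild-type mice 12 of 14 ER folding factors are filled, and in transgenic mice 4.

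In transgenic mice, DSS gave 5 calls among the 36 genes, all higher, where 3.46% of all genes were called higher. They were the folding factors Sdf2l1 (0.95), Creld2 (0.79), Pdia6 (0.78) and Calr (0.50) and the small heat shock protein Hspb1 (0.73). Hspb1 is the 1 gene of the 5 that was not called in wild-type mice. It was at 9.55, 9.87, 9.997, 10.09 and 10.25 in untreated and at 10.32, 10.53, 10.58, 10.74 and 11.26 in DSS transgenic mice. In wild-type DSS mice it ranged from 8.64 to 10.74, and the difference between the genotypes' responses was not called for it (0.47 ± 0.42). Dnajb1 and Hspa4l also had all 5 DSS transgenic mice above the untreated ones without being called. With these, 6 of 36 genes did not overlap, against 5.40% of all genes.

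The calls in transgenic mice depended on single mice. Leaving out each of 10 mice in turn gave 1 to 9 calls, and every one of the 10 fits moved the count by more than 1.5 times. The count was 9 without DSS mouse 47, 8 without untreated mouse ColonBasalTG631, 3 without untreated mouse 31 or 28 or DSS mouse 49, 46 or 44, 2 without untreated mouse 29 and 1 without untreated mouse 26 or DSS mouse 48. Sdf2l1 was called in all 10. The spread of log2 values within an array was 1.73 to 1.89 in untreated and 1.83 to 2.02 in DSS transgenic mice, and with it as a covariate 1 of the 36 genes was called. In wild-type mice the count stayed between 8 and 14, and it was 8 without untreated mouse 7. Hspa5, Hsp90b1, Pdia6, Calr, Dnajc3, Creld2, Hyou1 and Hsph1 were called in each of those 10 fits, whereas Pdia3 was called in 1 and Dnajb11 in 2. The counts of this paragraph stand without the share of all genes called in each fit, which may have moved with them.

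Whether the response to DSS differed between the genotypes was tested by an interaction over the 20 conventional mice. Hsph1 was the only one of the 36 genes called, with a response smaller by 0.99 log2 units in transgenic mice (95% interval of the difference -1.35 to -0.62, limma adjusted p = 0.0293). It was also the 1 gene called lower among all genes, which is 0.00502%. Its values in transgenic mice were 6.99, 7.05, 7.22, 7.32 and 7.39 untreated and 7.07, 7.27, 7.29, 7.29 and 7.59 with DSS, which overlap. This call was lost in 11 of 20 fits that left out 1 mouse, with values from -1.07 to -0.89 and a largest adjusted p of 0.0751. Those mice were untreated wild-type 7, 8 and 10, untreated transgenic 28, 31 and ColonBasalTG631, wild-type DSS 56 and transgenic DSS 44, 46, 47 and 48. Hspa5 had a difference of similar size, -1.01 ± 0.23, with an adjusted p of 0.0992, and was not called. The fitted difference between the responses was negative for all 14 folding factors, with a median of -0.42 against -0.02 over all genes, but none was called. For Dnajb9 it was negligible (-4.12e-05), as its DSS difference was -0.20 in both genotypes. The difference for Sdf2l1 was -0.14 ± 0.26.

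The direct comparison of transgenic with wild-type mice gave no call. Without DSS, 0 of 36 genes were called, where 0.0753% of all genes were. Of the 36 genes 2 had an unadjusted p under 0.05, near the share over all genes, 996 of 19908. With DSS, 0 of 36 were called against 0.00502% of all genes, and 10 of the 36 had an unadjusted p under 0.05, as did 5.17% of all genes. Within the DSS mice, Hspa5 was lower in transgenic mice by a fitted 0.73 (95% interval -1.02 to -0.44, adjusted p = 0.186) and Hsph1 by 0.91 (95% interval -1.21 to -0.60, adjusted p = 0.0987), and for both genes the 2 groups of 5 did not overlap. They were the 2 of the 36 genes whose groups did not overlap. Over all 19908 genes, transgenic mice lay below without overlap in 33 and above in 280. Some other fits called 1 to 6 of the 36 genes in this comparison: 6 with array weights, 4 with the spread of each array as a covariate, and 1 with all 35 arrays or with a pancreatic covariate. The share of all genes called in these fits is not given here. The counts therefore do not show whether the 36 genes moved apart from the rest.

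Other genes of the pathways were read from longer lists. Over all genes, 3.00% were called higher and 2.13% lower in wild-type mice after DSS, and 3.46% higher in transgenic mice. In wild-type DSS mice, 6 of 28 further ER folding genes rose, among them the disulfide reductase Dnajc10 (1.43), the collagen chaperone Serpinh1 (0.94), the oxidase Ero1a (1.00) and Pdia5 (0.89). Of 36 translocon and early secretory genes 7 rose, including the translocon-associated Ssr2 (0.63), the signal peptidase subunit Spcs1 (0.70) and the KDEL receptor Kdelr3 (1.51). None of 21 further degradation genes was called. Of 38 further genes of the unfolded protein and integrated stress responses 7 rose, including asparagine synthetase Asns (1.30), Mthfd2 (1.00) and Nupr1 (1.20), which are known targets of ATF4. Over these 38 genes the median difference was 0.14, and 24 were positive. Ddit3 and Trib3, on which ATF4 also acts, had negative differences and were not called. Activity of ATF4 was not tested. Of 44 further cytosolic chaperone genes 2 rose, Stip1 (0.93) and Ahsa2 (0.58), and Hspb7 fell by 0.60. None of 20 further mitochondrial chaperone and protease genes was called. In transgenic DSS mice the same lists, in the order given here, had 3 of 28, 4 of 36, 1 of 21, 1 of 38, 1 of 44 and 1 of 20 genes called, all higher. The lists with 1 call stood at 2.27% to 5%, near the share over all genes.

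Marker genes of cell types moved with DSS as well. The shares of all genes called higher were 3.00% in wild-type and 3.46% in transgenic mice. In wild-type mice, 10 of 15 cell cycle genes, 8 of 15 neutrophil and macrophage genes, 6 of 15 fibroblast genes, 6 of 12 goblet cell genes, 1 of 13 plasma cell genes and 1 of 14 epithelial genes were called higher. Mean levels of the goblet list ranged from 10.71 to 11.06 in untreated and from 10.66 to 11.65 in DSS wild-type mice, and those of the fibroblast list from 8.25 to 8.59 and from 8.64 to 9.76. The cell cycle list ranged from 6.74 to 7.17 and from 7.33 to 9.22, the neutrophil and macrophage list from 6.48 to 6.64 and from 6.80 to 8.92, and the plasma cell list from 6.74 to 7.29 and from 6.96 to 7.82. In transgenic mice, 11 of 15 cell cycle, 7 of 15 fibroblast, 3 of 12 goblet, 2 of 14 epithelial and 1 of 15 neutrophil and macrophage genes were called higher, and 0 of 13 plasma cell genes. The part of these cells in the chaperone result was not tested.

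Marker genes of position along the gut and of the pancreas were read as well. Whether the position sampled or tissue carried along differed between the groups was not tested. Posterior Hox genes, which mark the distal end of the gut, were called lower in 5 of 8 cases in wild-type DSS mice, with mean levels of 6.79 to 7.77 in untreated and 6.21 to 6.61 in DSS mice, which do not overlap. With their mean level as a covariate, calls over all genes went from 1022 to 9, and of the 14 called chaperone genes Hsp90b1 remained, at 1.96. The fitted differences of the other 13 ran from 0.26 for Sec61b to 2.11 for Creld2, and 11 of the 14 were larger than without the covariate. The median SE of the 14 went from 0.17 to 0.33. In transgenic mice the same list was at 6.45 to 7.58 and 6.71 to 6.89 and 0 of 8 were called, and 3 of the 5 calls remained with the covariate. Pancreatic enzyme genes were at mean levels of 6.95 to 10.70 in untreated and 6.57 to 8.35 in DSS wild-type mice, and 2 of 21 were called lower. In transgenic mice they were at 7.09 to 10.46 untreated and 6.56 to 7.08 after DSS, and 1 of 21 was called lower. The highest untreated mice were wild-type mouse 11 (10.70) and ColonBasalTG631 (10.46). With that list as a covariate, 8 of the 14 calls in wild-type and 2 of the 5 in transgenic mice remained, while calls over all genes went from 1022 to 374 and from 905 to 87. The 6 genes no longer called in wild-type mice had fitted differences of 0.56 (Pdia3) to 1.15 (Sdf2l1), and the 3 in transgenic mice 0.59 (Calr) to 0.85 (Pdia6).

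The ER folding factors and the heat shock genes were also set side by side within each mouse. For each gene the difference from its mean in a reference group was taken. This was untreated wild-type mice for all conventional mice, transgenic ones included, and axenic controls for axenic mice. The differences were averaged over the 14 folding factors and over the 8 cytosolic and mitochondrial genes. In wild-type DSS mice the folding mean was 0.91 ± 0.31 (SD, n = 5), from 0.54 to 1.35, and the heat shock mean 0.44 ± 0.26, from 0.20 to 0.86. Folding exceeded heat shock in each of the 5 mice, by 0.47 ± 0.09 and by 0.34 to 0.61. In transgenic DSS mice the means were 0.58 ± 0.22 and 0.21 ± 0.22, and folding exceeded heat shock by 0.26 to 0.43 in each mouse. Untreated transgenic mice had a folding mean of 0.10 ± 0.25 (SD). Folding minus heat shock was -0.04 to 0.17 in them and -0.09 to 0.14 in untreated wild-type mice. It was 0.15 to 0.41 in recipients of wild-type flora and 0.16 to 0.52 in recipients of transgenic flora. In recipients of wild-type flora the degradation and translocon mean (0.86) was above the folding mean (0.77). The sensors averaged -0.03 ± 0.16 in wild-type DSS mice. These means are a description with no test, since the genes were chosen with results known.

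**Figure D3:**
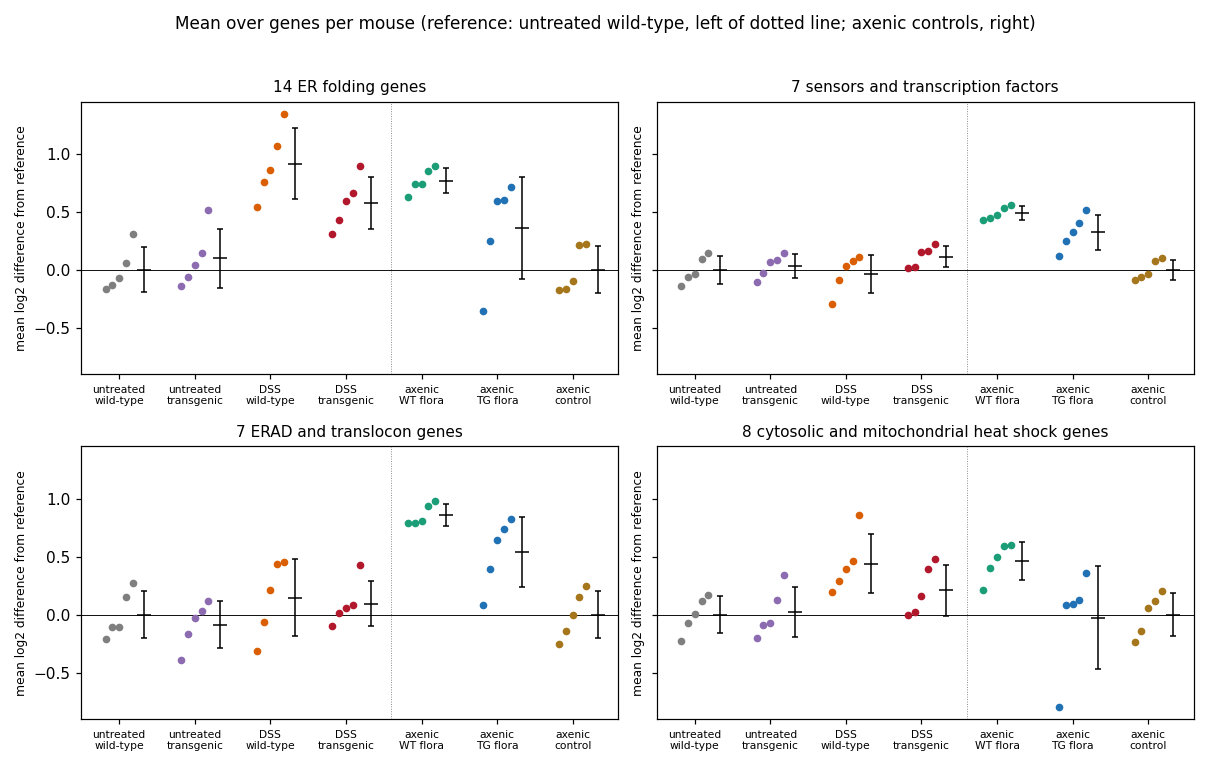
Mean log2 difference from the reference group (vertical axis) over the genes of 4 roles, per mouse; conventional mice are set against untreated wild-type mice and axenic mice against axenic controls, and bars are mean and SD over 5 mice. The folding factors stand at 0.54 to 1.35 in wild-type DSS mice while the sensors stand between -0.29 and 0.11.

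In axenic mice, recipients of wild-type flora had higher deposited values than axenic controls for most of these genes, but so did a large share of the transcriptome. Of the 36 genes 29 were called higher, where 32.1% of all genes were, and 1 was called lower, Trib3 at -0.45, where 35.2% of all genes were. The level of Trib3 was near the median signal of the arrays. In 23 of the 36, all recipients lay above all controls, as did 20.1% of all genes. The called genes included 13 of 14 folding factors, 5 of 7 sensors and factors called higher, 6 of 7 degradation and translocon genes, and 5 of 8 heat shock genes.

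The largest of these was Sdf2l1. It lay at 8.44, 8.60, 8.75, 8.86 and 9.54 in axenic controls and at 10.33, 10.44, 10.46, 10.50 and 10.56 in recipients of wild-type flora, a rise of 1.62 ± 0.17. Xbp1 was called in this comparison: it was at 10.20, 10.55, 10.85, 10.89 and 11.03 in controls and at 11.43, 11.59, 11.63, 11.65 and 11.67 in recipients, 0.89 ± 0.14 higher. Degradation genes stood far apart too. Edem1 was at 8.91, 9.18, 9.22, 9.76 and 9.87 in controls and at 10.56, 10.65, 10.69, 10.71 and 10.72 in recipients, and Herpud1 was 1.23 ± 0.20 and Dnajb9 1.28 ± 0.17 higher. Hspa5 differed by 0.44 ± 0.10, less than these. Hsph1 (0.24) and Hspa8 (0.05) were not called.

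The size of these differences changed with the fit. The spread of log2 values within an array (its SD over probe sets) was 1.64 to 1.78 in axenic controls and 1.90 to 2.03 in recipients of wild-type flora, without overlap. When the arrays of this comparison were quantile-normalised again, 14 of the 36 genes were called, 12 higher, where 33.3% of all genes were called in either direction. The 14 calls are thus near the share over all genes. The share of all genes called higher in this fit is not given here. Sdf2l1 (0.94), Dnajb1 (0.94), Dnajb9 (0.72), Derl2 (0.71), Edem1 (0.60), Herpud1 (0.57) and Pdia4 (0.54) were the largest that remained higher, and Xbp1 was at 0.35 (limma adjusted p = 0.0411). The sign changed for 12 of the 36 genes. Of the folding factors these were Hspa5 (-0.023), Pdia3 (-0.070), Canx (-0.23), Dnajb11 (-0.13), Dnajc3 (-0.062) and Manf (-0.12). Of the 8 heat shock genes they were Hsph1 (-0.27), Hspa8 (-0.21), Hsp90aa1 (-0.25), Hspd1 (-0.49) and Hspe1 (-0.082). The translocon subunit Sec61b was then called lower (-0.56, limma adjusted p = 0.0306). With the spread of each array as a covariate, 0 of 36 and 1 gene in all were called. As the spread does not overlap between these groups, that fit cannot tell it apart from the flora. Among cell type lists in this comparison, 10 of 13 plasma cell, 9 of 12 goblet, 16 of 21 pancreatic and 11 of 14 epithelial genes were called higher as deposited, and their part was not tested.

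**Figure D4:**
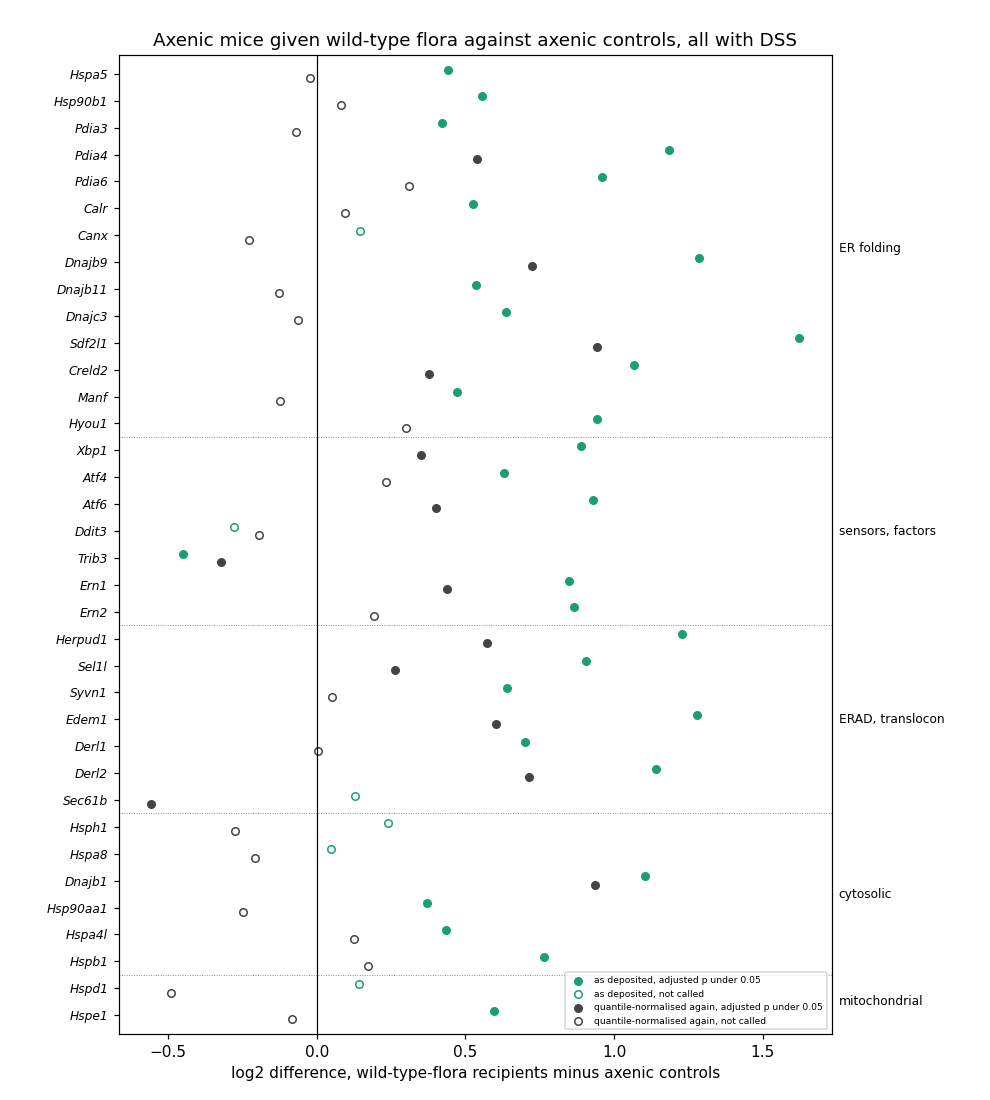
Log2 difference between recipients of wild-type flora and axenic controls (horizontal axis) for 36 genes, from the deposited values and after quantile normalization of these 10 arrays; filled points have adjusted p under 0.05. Sdf2l1 moves from 1.62 to 0.94 and Hspa5 from 0.44 to -0.023.

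Recipients of transgenic flora were set against the same axenic controls, so the comparisons of both flora groups share those 5 mice. None of the 36 genes was called, where 0.337% of all genes were, and 11 of the 36 had an unadjusted p under 0.05, as did 18.1% of all genes. Sdf2l1 differed by 0.98 ± 0.23 (adjusted p = 0.1003), Edem1 by 0.96, Xbp1 by 0.84 and Herpud1 by 0.80. Mouse ColonAXDSSTG922 was the lowest of its group in 30 of the 36 genes and in all 14 folding factors. Its Hspa5 value was 10.68, against 11.39, 11.61, 11.74 and 11.85 in the other mice, and its array had the smallest spread of its group, 1.66. Without it, 19 of the 36 genes were called, all higher, but 26.7% of all genes were then called in either direction. These 19 included Sdf2l1, Xbp1, Edem1 and Herpud1, as well as Atf6 and Ern1.

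Transgenic and wild-type flora were compared directly, and 0 of 36 genes were called, as were 0% of all genes in this comparison. Of the 36, 13 had an unadjusted p under 0.05, and of all genes 6856 (34.4%) did, so the count of 0 after adjustment goes with a smallest adjusted p of 0.0695 over all genes. Fitted values were lower in recipients of transgenic flora for 34 of the 36 genes, with a median of -0.41 against -0.00139 over all genes. This shift differed between fits: after quantile normalization the median was -0.092, with 24 of 36 lower. With the spread of each array as a covariate the median was 0.031, with 15 of 36 lower. The spread within an array was 1.66 to 1.94 in recipients of transgenic and 1.90 to 2.03 in recipients of wild-type flora. As the spread largely follows the groups, the covariate fit can hardly tell it apart from the flora. Marker lists moved in the same comparison: the median difference was -0.65 over 13 smooth muscle, -0.59 over 15 cell cycle and -1.97 over 21 pancreatic genes, with none called. Mean levels of the smooth muscle list were 9.01 to 9.87 against 9.86 to 10.51, of the cell cycle list 7.59 to 8.68 against 8.47 to 9.18, and of the pancreatic list 6.63 to 9.28 against 7.03 to 10.45. Their part in the shift was not tested. Dnajb1 had the lowest, -0.90 ± 0.19 (adjusted p = 0.0695), with values of 6.77, 7.05, 7.20, 7.37 and 7.60 against 7.69, 7.74, 8.23, 8.33 and 8.50 in recipients of wild-type flora. These groups did not overlap. Recipients of transgenic flora lay below without overlap in 4 of the 36 genes and above in 1. Over all 19908 genes they did so in 886 and 594. Without mouse ColonAXDSSTG749 of the transgenic-flora group, 12 of the 36 genes and 23.6% of all genes were called.

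Levels across all 7 groups are given as a description, since the conventional and axenic mice were not set against each other. Hspa5 had its lowest group mean in untreated wild-type mice, 10.52 ± 0.18 (SD, n = 5), followed by untreated transgenic mice at 10.81 ± 0.41 and transgenic DSS mice at 11.02 ± 0.21. Axenic controls (11.44 ± 0.19), recipients of transgenic flora (11.45 ± 0.46), wild-type DSS mice (11.75 ± 0.21) and recipients of wild-type flora (11.88 ± 0.09) came next. Each pair of neighbours in this order overlapped in its mice. Ern2, the IRE1 form of mucus-secreting epithelium, had a different order. It was lowest on average in axenic controls at 8.58, 8.62, 9.23, 9.24 and 9.47, and highest on average in transgenic DSS mice at 10.64 ± 0.15. Untreated wild-type mice were at 10.19, 10.31, 10.31, 10.41 and 10.41. Axenic controls and untreated wild-type mice differ in housing, DSS and the spread within an array (1.64 to 1.78 and 1.76 to 1.97), and no test was made between them. Trib3 lay between 6.20 and 7.17 and Ddit3 between 6.35 and 7.26 on all 35 arrays.

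For 7 of the 36 genes more than 1 probe set carried the symbol: Dnajc3, Sec61b, Hspa8, Hsp90aa1, Hspb1, Hspd1 and Hspe1. The probe set with the highest mean signal was used. Several of these genes are known to have near-identical copies in the genome, so their probe sets may read more than 1 locus. The 2 probe sets of Hspd1 disagreed in the comparison of wild-type flora with controls, at 0.14 for the one used and 0.67 for the other. For Sec61b, 3 probe sets gave 0.60, 0.45 and 0.44 after DSS in wild-type mice, and averaging probe sets changed no call among the 36 genes in any of the 8 comparisons.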

How the data were processed

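Each array held 200 ng of colon RNA from 1 mouse. RMA in Affymetrix Expression Console 1.1 was the authors' normalization per the labels, and the deposited log2 values ran from 3.78 to 14.4. Of 28090 probe sets, 21639 were annotated with 1 gene symbol and 1539 with several, which were left out. For the 990 genes with several probe sets, that of highest mean signal was kept, which left 19908 genes. No column of values was left out.

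Groups followed the titles. Moderated linear models (limma 3.58.1 under R 4.3.3) used only the arrays of the groups compared, in 7 comparisons of 2 groups and 1 interaction. The script was tested on simulated data with known changes. Values after ± are standard errors of fitted differences, or SDs where so marked. All measured genes of the 37 listed are named, and of every other list at most the 4 with the smallest p in a comparison. The listed genes and the other lists (ER folding, translocon and secretion, degradation, stress response, cytosolic and mitochondrial chaperones, and markers of goblet, plasma, pancreatic, fibroblast, smooth muscle, epithelial, neutrophil and macrophage, cycling cells and posterior Hox) were chosen with earlier results of these data known, so their counts are not independent evidence.

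Other fits tried weighted arrays, 1 model over all 35 arrays, a trended robust variance, quantile normalization, covariates (pancreatic list, posterior Hox list or within-array SD), averaged probe sets, a filter at the 40th percentile of signal, and leaving out each mouse. Tables were made in pandas 2.3.3 and numpy 2.4.6, figures in matplotlib 3.10.9, under Python 3.11.15. Nothing in the labels gives an extraction or scan batch, and batches were not analysed here.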

Additional observations from a re-analysis of the deposited data

Results flagged for a closer look

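In 252 sets of 5 mice (36 genes in 7 groups), 14 had 1 mouse far from the other 4 by Dixon's test, where chance flags about 1 in 20 sets. Among recipients of transgenic flora, mouse ColonAXDSSTG922 was low for Calr (11.238, nearest 11.947), Hsp90aa1 (9.1734) and Hspe1 (9.0509). Among wild-type DSS mice, mouse 55 was low for Ern2 (9.1983, nearest 10.145) and Herpud1 (9.8379). Among untreated wild-type mice, mouse 11 was high for Dnajb11 (8.8544) and Creld2 (9.0141). Among untreated transgenic mice, mouse ColonBasalTG631 was high for Calr (11.397), and mouse 31 was low for Derl1 (8.9923) and high for Sec61b (9.2884). Transgenic DSS mouse 49 was high for Creld2 (9.6708). Among axenic controls, mouse ColonAXDSSCT229 was low for Ddit3 (6.3906) and mouse ColonAXDSSCT517 high for Sec61b (9.6098). Recipient ColonAXDSSWT639 of wild-type flora was high for Hspa8 (13.188).

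The response of Hsph1 to DSS differed between the genotypes by -0.99 log2 units, by the interaction test of limma over the 20 conventional mice (adjusted p = 0.0293).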

How the results depend on the processing

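The number of the 36 genes called in each comparison depended on the fit. The share of all genes called is given above for some of these fits only. Where it is absent, a count does not show whether the 36 genes moved apart from the rest. In wild-type mice after DSS (14 as reported) it was 22 with array weights, 8 with the pancreatic covariate and 1 with the posterior Hox covariate, and 8 to 14 when 1 mouse was left out. In transgenic mice after DSS (5) it was 12 with array weights, 8 over genes above the 40th percentile of signal, 2 with the pancreatic, 3 with the posterior Hox and 1 with the within-array SD covariate, and 1 to 9 without 1 mouse. For the interaction (1) it was 6 with array weights, 4 after quantile normalization, 4 with the within-array SD covariate, 0 with all 35 arrays in 1 model, 0 with the posterior Hox covariate, and 0 to 2 without 1 mouse. For transgenic against wild-type mice it was 0 in every fit without DSS. With DSS (0) it was 6 with array weights, 1 with all 35 arrays, 1 with the pancreatic and 4 with the within-array SD covariate, and 0 in each fit without 1 mouse. For transgenic against wild-type flora (0) it was 12 with array weights, 7 with all 35 arrays and 0 to 12 without 1 mouse. For transgenic flora against controls (0) it was 20 with array weights, 6 with all 35 arrays and 0 to 19 without 1 mouse. For wild-type flora against controls (30) it was 14 after quantile normalization, 14 with the pancreatic and 0 with the within-array SD covariate, and 28 to 32 without 1 mouse.

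In wild-type flora against controls the sign changed after quantile normalization for 12 of the 36 genes: Hspa5 (-0.0231), Pdia3 (-0.0703), Dnajb11 (-0.13), Dnajc3 (-0.0623), Manf (-0.12), Sec61b (-0.56), Hsp90aa1 (-0.25), Hspe1 (-0.0824) and, called in neither fit, Canx (-0.23), Hsph1 (-0.27), Hspa8 (-0.21) and Hspd1 (-0.49). With the within-array SD covariate it changed for 10: Hsp90b1 (-0.12), Pdia3 (-0.15), Trib3 (0.0614), Derl2 (-0.0663), Hsp90aa1 (-0.17), Hspa4l (-0.0384), Hspe1 (-0.0189) and, called in neither fit, Canx (-0.20), Hspd1 (-0.16) and Ddit3 (0.066). The excess of folding over heat shock genes in transgenic DSS mice was 0.52 as a median over genes in place of 0.37 as a mean. The cause of these shifts was not tested. No paired analysis was possible because the mouse numbers in the labels differ between all groups. The number of arrays limits the precision, and genes near the background of the arrays may change without a visible difference.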
